A study of Mus musculus with 6 samples.

Results

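The insulin-like growth factor (IGF) genes were examined in mouse soleus, a slow calf muscle, as 2 ligands, 2 receptors and 6 binding proteins. They were chosen by name, with earlier results of these data known. Each had exactly 1 array feature that carried its symbol alone, so 10 of 10 were measured among 30142 genes with such a feature. The study set 3 Control mice, labelled wild type, against 3 cKO mice that lacked Mbtps1 in cells where a DMP1-driven Cre recombinase had been active. Values below are always listed in the order of the replicate numbers. All were male littermates aged 39 to 41 weeks, and total RNA of soleus from each mouse was hybridised to 1 whole-transcript Affymetrix array. The labels gave no treatment and did not say whether the wild type mice carried floxed alleles. Dmp1 is best known as a gene of osteocytes in bone, a cell type outside the muscle fibre, and whole muscle was assayed. Mouse numbers fell into a low range (715, 716 and 733, which are Control 1, Control 2 and cKO 1) and a high range (776, 779 and 780, which are Control 3, cKO 2 and cKO 3). The labels did not say what the ranges stand for. cKO 1 was the only cKO mouse of the low range and Control 3 the only Control mouse of the high range. The range was therefore partly confounded with genotype. Each difference within a range given below sets that 1 mouse against 2 of the other group.

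IGF1 and IGF2 are small secreted hormones related to insulin. Both signal through the IGF1 receptor, a tyrosine kinase that drives protein synthesis and growth in muscle, whereas the IGF2 receptor carries IGF2 and mannose 6-phosphate-tagged enzymes to lysosomes. Binding proteins hold most IGF outside cells, and they prolong, block or deliver its action. In muscle IGF1 is made by fibres and by cells between them, IGF2 is known from muscle development and regeneration, and Igfbp5 is strongly expressed during myoblast differentiation.

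Values are log2 array signals as deposited, and a difference of 1 is a doubling of signal. Array medians ran from 4.004 to 4.37, with cKO 1 the highest, and the median difference over the 33334 features tested was 0.07 (cKO minus Control). cKO 1 also had the lowest limma array weight, 0.254. Skeletal muscle fibre markers were high on every array, with a list mean of 16.8 to 17.0 over 10 genes, whereas 2 of 9 bone and osteocyte markers were tested and Dmp1 itself was not among them. Mbtps1 stood between 7.05 and 7.39 in Control and between 7.11 and 7.77 in cKO, a difference of 0.21 (SE 0.21, limma adjusted p = 0.999), but the sources do not say whether its feature covers the deleted exons. Of all features tested 0 passed an adjusted p of 0.05 (0.0 percent), and 1501 (4.5 percent) had an unadjusted p under 0.05.

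None of the 10 IGF genes passed limma's test when p-values were adjusted over all features. Higher means in cKO were seen for 7, against 65.8 percent of all features, and lower means for 3. After quantile normalization the split was 4 higher and 6 lower, against 49.1 percent of features higher. Unadjusted p-values under 0.05 were found for 2, Igf1r and Igf2, both higher in cKO, against 3.7 percent of features called in that direction. The 3 cKO arrays lay wholly above the 3 Control arrays for 1 gene, Igf1r, where 11.0 percent of features separated in either direction, 8.95 percent with cKO higher and 2.05 percent with cKO lower. Without Control 3 this count was 3 (Igf1r, Igf2 and Igf2r), where 26.6 percent of features separated. Without cKO 1 it was 2 (Igf1r and Igf2) against 25.5 percent of features, and without cKO 2 it was 3 (Igf1r, Igf2r and Igfbp4) against 18.2 percent. Igfbp2 was not tested without Control 2, cKO 1 or cKO 2, so counts in those fits are of 9 genes. In so small a family 1 gene changes the share much, so these counts are descriptions and no test. The count of 2 genes with an unadjusted p under 0.05, where the share of all features was 4.5 percent, changed with the arrays used and with the scaling. It was 3 without Control 3, where that share was 9.43 percent, and 0 without Control 1 (3.11 percent) and without cKO 3 (2.94 percent). It was 1 without Control 2 (4.28 percent) and without cKO 2 (3.13 percent), and 2 without cKO 1 (6.22 percent). After quantile normalization (4.54 percent) or centring on array medians (3.98 percent) it was 0. The median difference of the 10 genes was 0.08, against 0.07 over all features.

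**Figure D1:**
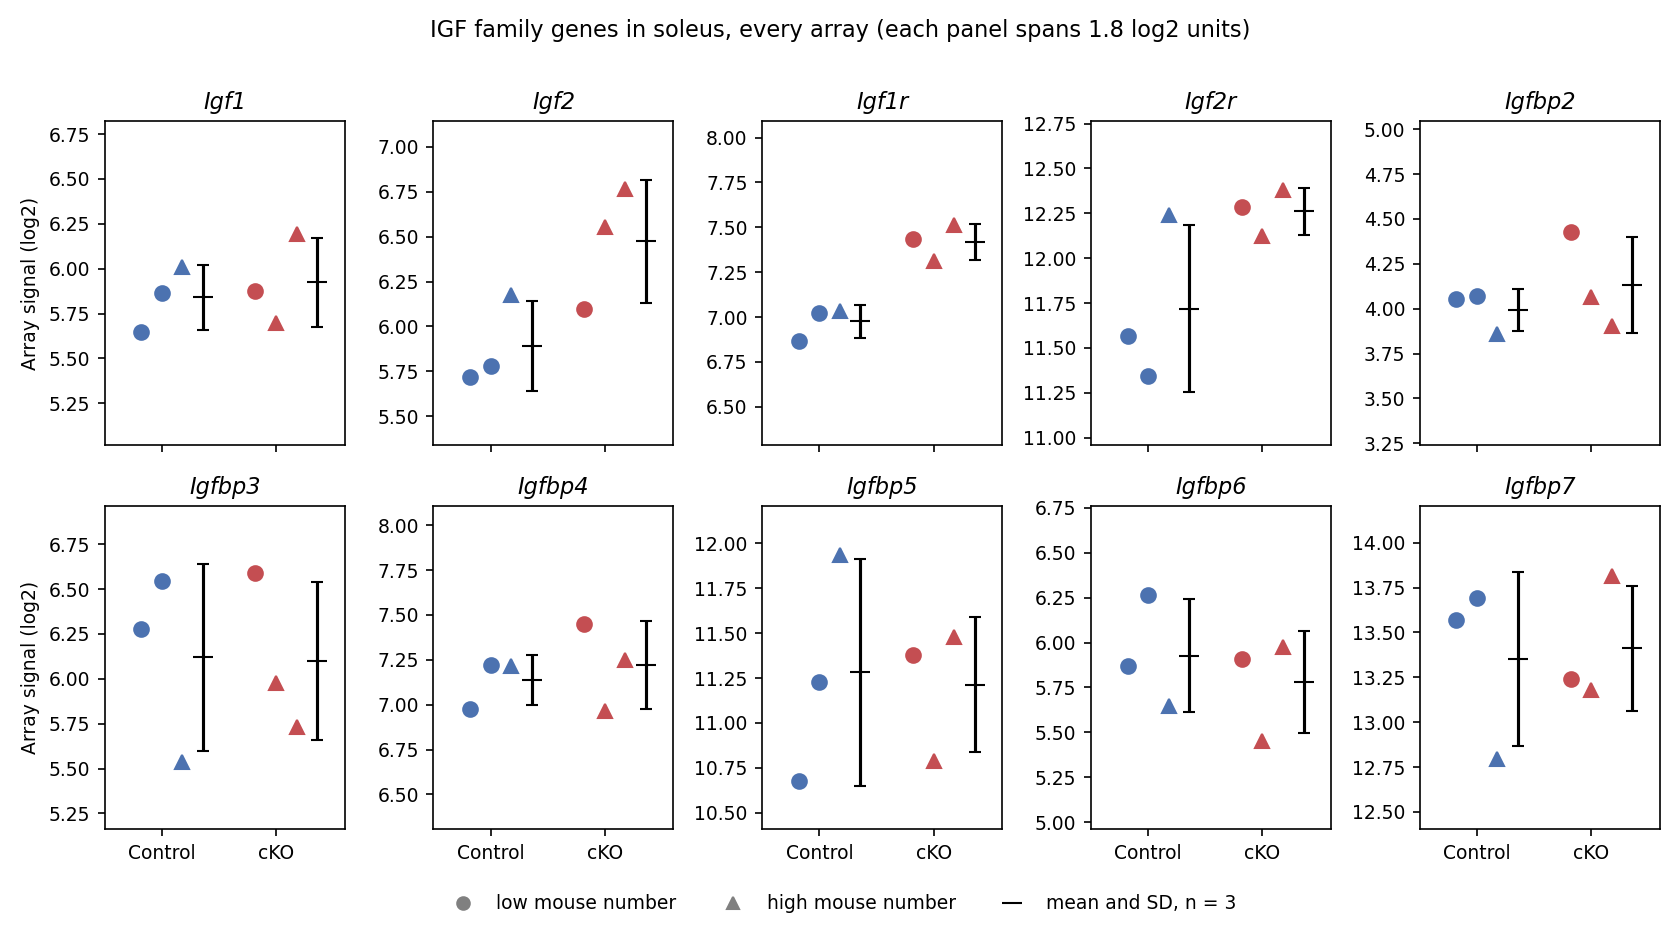
Log2 array signal of the 10 IGF genes on every array, with Control in blue and cKO in red. Circles mark low and triangles high mouse numbers, and black bars give the mean and SD of the 3 arrays of a group. The groups are apart for Igf1r and overlap for the other 9 genes.

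Igf2, the ligand of fetal growth, gave 5.72, 5.78 and 6.18 on the 3 Control arrays in order and 6.10, 6.56 and 6.77 on the cKO arrays. The groups overlapped only in that Control 3 lay above cKO 1. Control averaged 5.89 ± 0.25 (SD, n = 3), and cKO averaged 6.47 ± 0.34 (SD, n = 3). The difference was 0.58 log2 units (SE 0.22, 95 percent interval 0.05 to 1.12), or 1.5-fold, with a limma unadjusted p of 0.0368 and an adjusted p of 0.999. Over all alternatives it lay between 0.31 and 0.77, with an unadjusted p under 0.05 in 10 of 17 and a lowest adjusted p of 0.252. The mouse number range moved with Igf2 as well. Within the low numbers cKO exceeded Control by 0.35, and within the high numbers by 0.48. With the range in the model the genotype difference was 0.42 (SE 0.14), and with quantile normalization and the range together it was 0.31 (SE 0.16, limma unadjusted p = 0.107).

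Igf1, the growth hormone-responsive ligand, showed no such ordering. Its feature read 5.65, 5.87 and 6.01 on Control arrays 1 to 3, with 5.88, 5.70 and 6.19 on the cKO arrays, and the groups overlapped almost fully. The difference was 0.08 (SE 0.18, 95 percent interval -0.35 to 0.51, limma adjusted p = 0.999), and its sign turned after quantile normalization. The interval therefore spans folds from 0.787 to 1.43. One feature stood for the whole gene, so the splice forms of Igf1 were not resolved.

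Igf1r, the receptor kinase for both ligands, was the one member whose groups did not overlap. Its feature had Control values of 6.87, 7.02 and 7.04, and cKO values of 7.43, 7.31 and 7.51. Every cKO array exceeded every Control array, and the closest pair, cKO 2 and Control 3, came from high-numbered mice. Means were 6.98 ± 0.09 (SD, n = 3) and 7.42 ± 0.10 (SD, n = 3). The difference was 0.44 log2 units (SE 0.15, 95 percent interval 0.09 to 0.79), or 1.36-fold, with a limma unadjusted p of 0.0202 and an adjusted p of 0.999. Among low-numbered mice it was 0.49 and among high-numbered mice 0.38, and it was 0.43 with the range in the model, and 0.30 after quantile normalization. Leaving out each array in turn gave 0.39 to 0.50, and the groups were also apart after quantile normalization. Groups apart on all arrays cannot come to overlap when an array is left out. The unadjusted p was under 0.05 in 11 of 17 alternatives, and the lowest adjusted p was 0.293.

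Igf2r, the mannose 6-phosphate and IGF2 receptor, had the second largest difference of the family. Its feature gave 11.57, 11.35 and 12.24 on the 3 Control arrays in order and 12.28, 12.12 and 12.38 on the cKO arrays. Control 3 lay among the cKO arrays and the other Control arrays lay below them. Means were 11.7 ± 0.47 (SD, n = 3) and 12.3 ± 0.13 (SD, n = 3), so the spread was wider in Control. The difference was 0.54 (SE 0.27, 95 percent interval -0.11 to 1.19, limma unadjusted p = 0.0902, adjusted p = 0.999). Among low-numbered mice it was 0.83 and among high-numbered mice 0.0064, and it was 0.80 without Control 3 and 0.36 without Control 2. Bulk muscle RNA cannot tell a change in the number of cells that express a gene from a change in RNA per cell, for Igf2r and for the other genes alike.

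Tendon markers also had higher means in cKO. The marker lists were chosen with earlier results of these data known. Of 11 tested markers, 11 were higher in cKO (9 after quantile normalization), 6 had an unadjusted p under 0.05, and Mkx was below the filter. Over all features, 65.8 percent were higher in cKO and 3.7 percent were called higher at that p, which is the background for all the marker lists here. The list averaged 5.56, 5.55 and 6.22 on the Control arrays against 6.73, 6.81 and 6.90 on those of cKO, with no overlap. Control 3 was the highest Control array for this list, as it was for Igf2, Igf2r, Igf1, Igf1r and Igfbp5. The same held for the satellite cell, fibroblast, macrophage and muscle fibre markers, so this trait was not particular to tendon markers. Satellite cell markers had means of 5.47 to 5.64 in Control and 5.64 to 5.84 in cKO, with 7 of 9 higher and 1 at an unadjusted p under 0.05. Adipocyte markers had means of 6.48 to 6.54 and 6.56 to 6.98, with 5 of 8 higher and 3 at an unadjusted p under 0.05 (1 after quantile normalization). Smooth muscle and pericyte markers had means of 8.71 to 9.04 and 8.95 to 9.23, with 8 of 10 higher. Means overlapped between the groups for these last markers and for macrophage (10 of 11 higher), fibroblast (6 of 10), endothelial (4 of 12) and Schwann cell markers (2 of 5). The part of these cells in the values of Igf2, Igf1r and Igf2r was not tested.

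**Figure D2:**
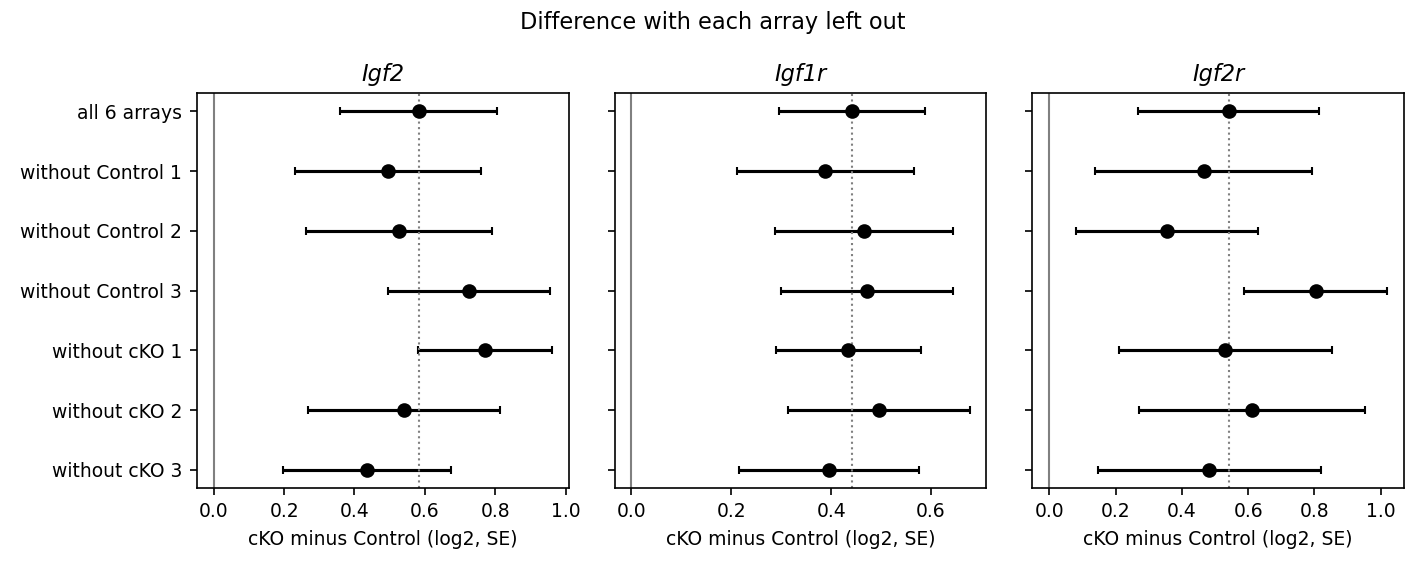
Difference of Igf2, Igf1r and Igf2r (cKO minus Control, log2) with all 6 arrays and with each array left out, with limma standard errors as bars. The dotted line marks the value over 6 arrays. Igf1r stays between 0.39 and 0.50, and Igf2r runs from 0.36 to 0.80.

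The upstream sequences of Igf1r, Igf2r and Igf2 are given here as the members with the largest differences, and that of Igfbp3 as the member that differed most by mouse number. Each holds 250 bases before a RefSeq start on GRCm38.p6, 5′ to 3′ on the strand of the gene. Capitals mark the GC box GGGCGG, the E-box CACGTG, the CCAAT box CCAAT and the TATA box TATAAA on either strand, and no matches overlapped. RefSeq listed 4 starts for Igf2, of which the most downstream is shown.
Igf1r, chr7:67952007-67952256, plus strand: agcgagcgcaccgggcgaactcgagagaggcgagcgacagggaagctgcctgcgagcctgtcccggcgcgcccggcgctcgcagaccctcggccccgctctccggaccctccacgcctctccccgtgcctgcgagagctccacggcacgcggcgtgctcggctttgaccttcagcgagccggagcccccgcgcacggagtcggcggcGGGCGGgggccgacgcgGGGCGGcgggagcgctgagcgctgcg
Igf2r, chr17:12769707-12769956, minus strand: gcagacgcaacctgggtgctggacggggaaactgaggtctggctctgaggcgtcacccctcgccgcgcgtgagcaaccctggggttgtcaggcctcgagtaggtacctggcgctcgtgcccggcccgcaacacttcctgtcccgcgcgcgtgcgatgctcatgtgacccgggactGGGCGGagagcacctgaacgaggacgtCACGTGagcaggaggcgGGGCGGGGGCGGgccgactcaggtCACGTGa
Igf2, chr7:142657497-142657746, minus strand: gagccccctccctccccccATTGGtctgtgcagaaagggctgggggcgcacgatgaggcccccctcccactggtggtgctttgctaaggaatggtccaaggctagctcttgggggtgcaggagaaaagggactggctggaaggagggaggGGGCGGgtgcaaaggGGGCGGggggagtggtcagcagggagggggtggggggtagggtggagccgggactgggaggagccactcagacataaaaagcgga
Igfbp3, chr11:7213924-7214173, minus strand: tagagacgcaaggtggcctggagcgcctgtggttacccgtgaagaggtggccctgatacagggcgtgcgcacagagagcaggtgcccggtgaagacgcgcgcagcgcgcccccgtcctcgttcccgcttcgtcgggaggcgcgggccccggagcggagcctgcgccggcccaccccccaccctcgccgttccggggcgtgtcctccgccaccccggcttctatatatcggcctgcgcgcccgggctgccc

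The Igf1r stretch was 77.6 percent G and C, above 97.65 percent of the 32851 promoters in the table, and held 2 GC boxes. The Igf2r stretch held 3 GC boxes and 2 E-boxes, the Igf2 stretch 2 GC boxes and 1 CCAAT box, and the Igfbp3 stretch none of the 4 motifs. Over all promoters of this length, 32.7 percent held a GC box, 6.02 percent an E-box, 33.8 percent a CCAAT box and 12.4 percent a TATA box. Igfbp4, at -28, was the one member with an exact TATAAA match near the start, and Igfbp6 had a match at -148. Only these exact letters were searched, so variants such as the tatatat in the Igfbp3 stretch were not counted. These matches describe the letters alone.

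The binding proteins showed no common direction, with 3 means higher and 3 lower. Igfbp4, an inhibitor of IGF action that the protease PAPP-A cleaves, read 6.98, 7.22 and 7.22 on Control arrays 1 to 3, with 7.45, 6.97 and 7.25 on the cKO arrays. The cKO arrays spanned the Control arrays. Its difference was 0.08 (SE 0.18, 95 percent interval -0.35 to 0.52), negative after quantile normalization. Igfbp5, which binds matrix and is prominent in differentiating muscle cells, was at 10.68, 11.23 and 11.94 in Control and 11.38, 10.79 and 11.48 in cKO. Here Control 1 and Control 3 held the lowest and highest of all 6 values. The difference was -0.07 (SE 0.37, 95 percent interval -0.95 to 0.81). Among low-numbered mice it was 0.42 and among high-numbered mice -0.81, and it turned to 0.26 without Control 3.

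Igfbp6, which prefers IGF2 over IGF1, had Control values of 5.87, 6.27 and 5.65, and cKO values of 5.91, 5.45 and 5.98. The groups overlapped, with cKO 2 lowest and Control 2 highest, and the difference was -0.15 (SE 0.22, 95 percent interval -0.68 to 0.38). Igfbp7, a low-affinity relative known from vessel walls, gave 13.57, 13.69 and 12.80 on the 3 Control arrays in order and 13.24, 13.18 and 13.81 on the cKO arrays. Control 3 was the lowest array and cKO 3 the highest. The difference was 0.06 (SE 0.32, 95 percent interval -0.69 to 0.81), which turned negative after quantile normalization. Endothelial markers were also lowest in Control 3, with list means of 8.95, 8.55 and 8.03 in Control 1 to 3 against 8.42, 8.26 and 8.44 in cKO 1 to 3. This trait was not particular to endothelial markers. Smooth muscle and pericyte (8.71), adipocyte (6.48), Schwann cell (5.92) and bone and osteocyte lists (5.15) had their lowest mean in Control 3 too. The smooth muscle and pericyte list, like Igfbp7, was highest in cKO 3 (9.23), whereas the endothelial list was highest in Control 1. The part of these cells in the Igfbp7 signal was not tested.

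Igfbp2, abundant in liver and in fetal tissue, was close to the array medians. Its feature read 4.06, 4.07 and 3.86 on Control arrays 1 to 3, with 4.43, 4.06 and 3.90 on the cKO arrays, above the median of its own array on 3 of 6 arrays. That just met the filter for testing. The highest value was that of cKO 1, the array with the highest median, and the difference was 0.14 (SE 0.17, 95 percent interval -0.26 to 0.54).

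**Figure D3:**
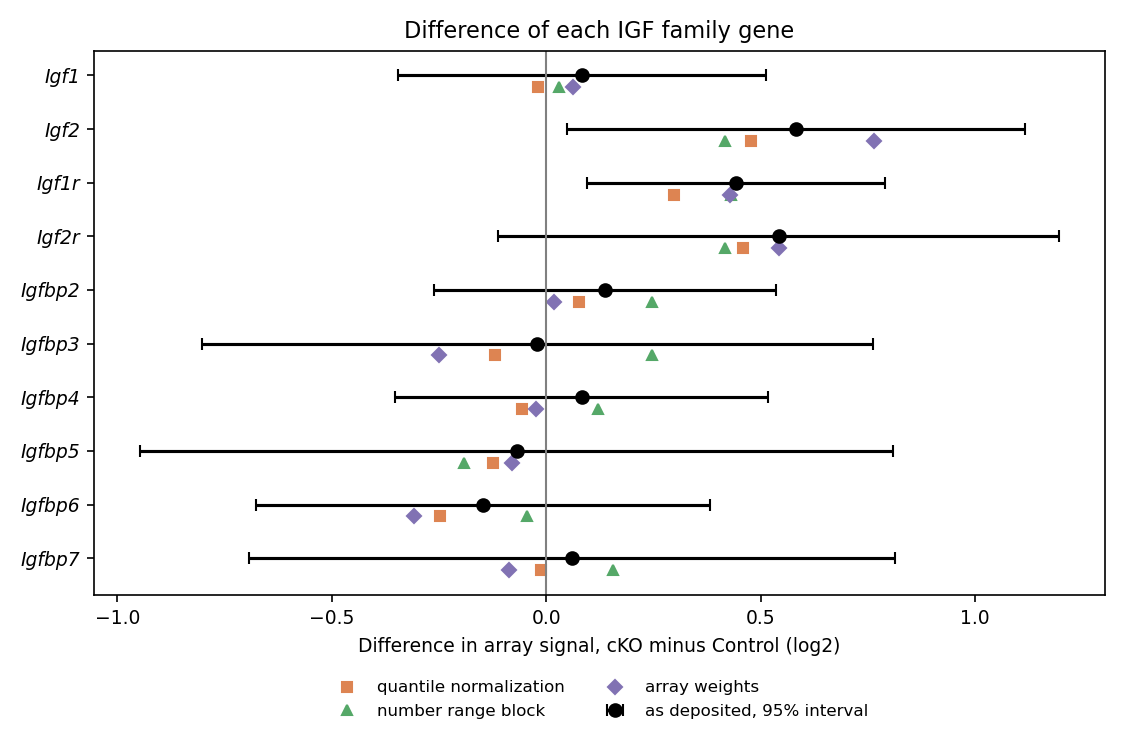
Difference of each IGF gene (cKO minus Control, log2) on the deposited values, with limma's 95 percent interval, and the value after quantile normalization, with the mouse number range in the model and with array weights. The intervals of Igf2 and Igf1r lie above 0, and those of the other 8 genes include 0.

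Igfbp3, the main IGF carrier of blood, was picked out after its values were seen, because its arrays were ordered by mouse number. Its values by number range are therefore a description, and their steadiness below is no test of that order. It was at 6.28, 6.54 and 6.59 in the low-numbered mice Control 1, Control 2 and cKO 1, and at 5.54, 5.98 and 5.73 in the high-numbered Control 3, cKO 2 and cKO 3. The number ranges did not overlap, while the genotypes did, Control averaging 6.12 ± 0.52 (SD, n = 3) and cKO averaging 6.10 ± 0.44 (SD, n = 3). In a model with both terms the high numbers differed from the low ones by -0.80 (SE 0.16), and 19.8 percent of all features had number ranges that did not overlap. The difference by number range was -0.79 after quantile normalization and lay between -0.87 and -0.73 with each array left out. The genotype difference was -0.02 (SE 0.33) without the range and 0.25 (SE 0.16, limma unadjusted p = 0.173) with it.

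The whole family is given in the same way. Over all features, 13.5 percent had an unadjusted p under 0.05 for the number range and 0.0 percent passed after adjustment. Of the 10 IGF genes 3 had such an unadjusted p (Igfbp3, Igf2 and Igfbp2), and 0 passed after adjustment. Ranges did not overlap for 2 of the 10 (Igfbp3 and Igf2), near the 19.8 percent of all features. Igf2 was higher in the high numbers by 0.50 (SE 0.14). Igfbp2 differed by -0.32 (SE 0.13), which was -0.14 after quantile normalization. This comparison was added after the values were seen. Igfbp3 was picked for this split, so its place in these counts is no test of it.

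**Figure D4:**
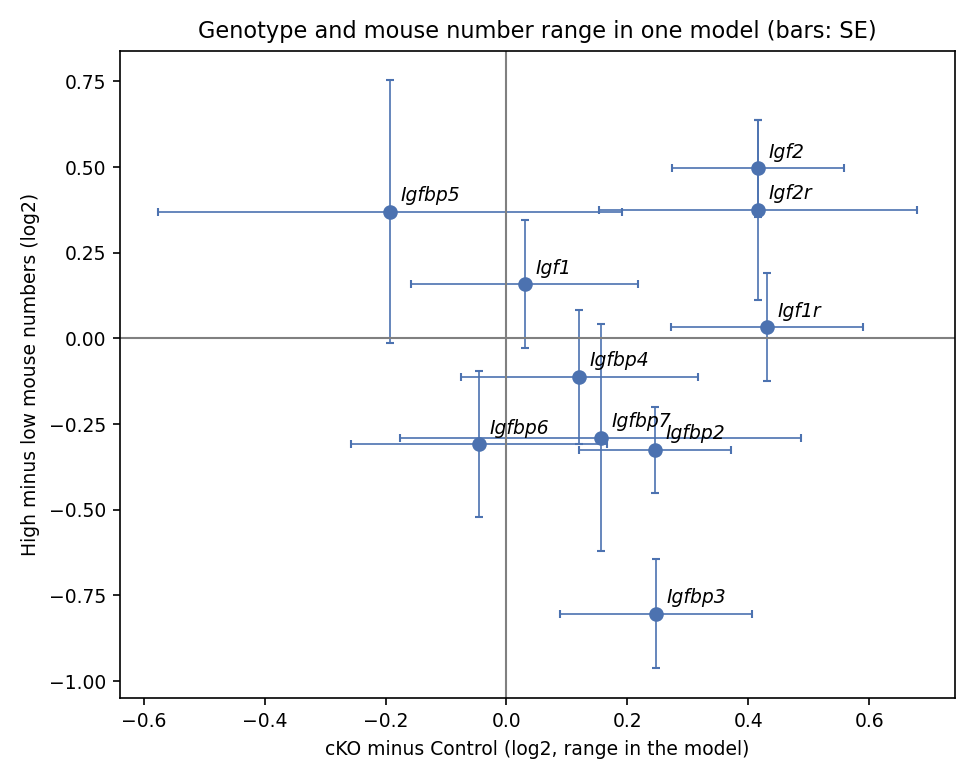
Genotype difference (horizontal) and mouse number range difference (vertical) of each IGF gene from one limma model with both terms, in log2 units, with standard errors as bars. Igfbp3 lies lowest, at -0.80 for the range, and Igf1r lies near 0 for the range and at 0.43 for the genotype.

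Genes around the IGF system were read from 6 lists, in which 0 genes passed the adjusted threshold. The lists were chosen with earlier results of these data known, so their counts are descriptions and no independent support. Over all features 65.8 percent were higher in cKO, and 49.1 percent after quantile normalization. In the mannose 6-phosphate sorting list, the machinery that shares Igf2r, 10 of 11 genes were tested, 9 were higher in cKO and the median difference was 0.27, against 0.07 over all features. The groups did not overlap for 6 of the 10, all higher in cKO, against 8.95 percent of features, and this count was 2 after quantile normalization, with 9 of 10 still higher and a median of 0.18. Gga1, an adaptor that sorts the receptors at the Golgi, had Control values of 6.63, 6.78 and 6.94, and cKO values of 7.22, 7.34 and 7.26. All cKO values lay above all Control values, and the difference was 0.49 (SE 0.15, limma unadjusted p = 0.0141, under 0.05 in 13 of 17 alternatives). Ap1m1, a subunit of the clathrin adaptor AP-1, differed by 0.45 (SE 0.18, unadjusted p = 0.0479). That p was under 0.05 in 6 of 17 alternatives and was 0.197 after quantile normalization, where the difference was 0.30. Gga2 differed by 0.37 (SE 0.20) and the urokinase receptor gene Plaur by 0.23 (SE 0.14).

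Among insulin receptors and proximal adaptors, 15 of 19 genes were tested, with 12 higher and 3 lower (8 and 7 after quantile normalization). Over all features 65.8 percent were higher, and 49.1 percent after quantile normalization. The list had 1 gene with an unadjusted p under 0.05, in the lower direction, where 0.807 percent of features did. This was Grb14, an adaptor that inhibits insulin receptor signalling. It gave 10.09, 10.52 and 10.003 on the 3 Control arrays in order and 9.25, 9.29 and 8.99 on the cKO arrays. The groups lay well apart, by -1.02 log2 units (SE 0.21, limma unadjusted p = 0.00221, adjusted p = 0.999). Over the alternatives the difference ran from -1.12 to -0.87, with an unadjusted p under 0.05 in all 17 and a lowest adjusted p of 0.243. The kinase gene Akt2 differed by 0.38 (SE 0.17), the adaptor genes Shc1 by 0.37 (SE 0.20) and Gab1 by 0.62 (SE 0.34), and none of these had an unadjusted p under 0.05.

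Of the muscle targets of IGF signalling, 14 of 16 were tested, with 11 higher and 3 lower (6 and 8 after quantile normalization). Over all features 65.8 percent were higher, and 49.1 percent after quantile normalization. Unadjusted limma p-values under 0.05 were found for 2 targets higher and 1 lower, against 3.7 and 0.807 percent of features. Groups were apart for 3 targets higher and 1 lower, against 8.95 and 2.05 percent of features. Fbxo32, the atrophy ubiquitin ligase that active IGF signalling represses, read 14.92, 15.17 and 14.72 on Control arrays 1 to 3, with 14.43, 14.51 and 14.05 on the cKO arrays. All cKO values were below all Control values, by -0.61 (SE 0.22, limma unadjusted p = 0.0292, under 0.05 in 13 of 17 alternatives), which was -0.57 after quantile normalization. Its partner in atrophy, Trim63, differed by -0.52 (SE 0.31, unadjusted p = 0.141) with overlapping groups. The translation repressor gene Eif4ebp1 differed by 0.59 (SE 0.21, unadjusted p = 0.0249, under 0.05 in 11 of 17 alternatives) and the myogenic factor gene Myod1 by 0.59 (SE 0.17, unadjusted p = 0.0119, under 0.05 in all 16 in which it was tested), both with the groups apart.

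The growth hormone axis had 8 of 12 genes tested, 0 with an unadjusted p under 0.05, and a median difference of 0.17 (0.04 after quantile normalization). Cish, a growth hormone-induced inhibitor, differed by 0.59 (SE 0.26, limma unadjusted p = 0.0601), Stat5a by 0.38 (SE 0.20), Stat5b by 0.41 (SE 0.24) and Ptpn1 by 0.21 (SE 0.15). Stat5a and Stat5b encode the transcription factors that carry the growth hormone signal to Igf1. Cish was highest in cKO 3, at 7.05 against 6.17 and 6.16 in cKO 1 and cKO 2 and 5.76 to 5.97 in Control, and its difference was 0.30 without cKO 3.

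Other binding proteins, IGF-releasing proteases and their inhibitors had 9 of 15 genes tested, 0 with an unadjusted p under 0.05, and a median of 0.03. Stc2, an inhibitor of PAPP-A, differed by 0.27 (SE 0.16), Stc1, another such inhibitor, by -0.29 (SE 0.33), Crim1 by 0.19 (SE 0.24) and Igfbp1 by 0.14 (SE 0.18). Pappa, which encodes PAPP-A, lay below the filter. The imprinted growth genes and Igf2 mRNA-binding genes had 7 of 14 tested. H19, the neighbour of Igf2, and the Igf2 mRNA-binding genes Igf2bp1, Igf2bp2 and Igf2bp3 were not among the tested genes. Of the 7 tested, 2 had an unadjusted limma p under 0.05 and were higher in cKO, against 3.7 percent of features. The count was 1 with array medians centred and 0 without Control 1, without Control 2 or without cKO 3. Peg3, a paternally expressed zinc finger gene, had Control values of 5.79, 5.38 and 6.19, and cKO values of 6.39, 6.34 and 6.78. The groups were apart, and the difference was 0.72 (SE 0.24, limma unadjusted p = 0.0222, under 0.05 in 14 of 17 alternatives). Nnat differed by 0.35 (SE 0.13, unadjusted p = 0.0372, under 0.05 in 7 of 16 alternatives), Mest by 0.15 (SE 0.13) and Ndn by -0.14 (SE 0.27). The direction of this list depended on scaling, with 6 of 7 higher as deposited and 3 of 7 after quantile normalization.

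**Figure D5:**
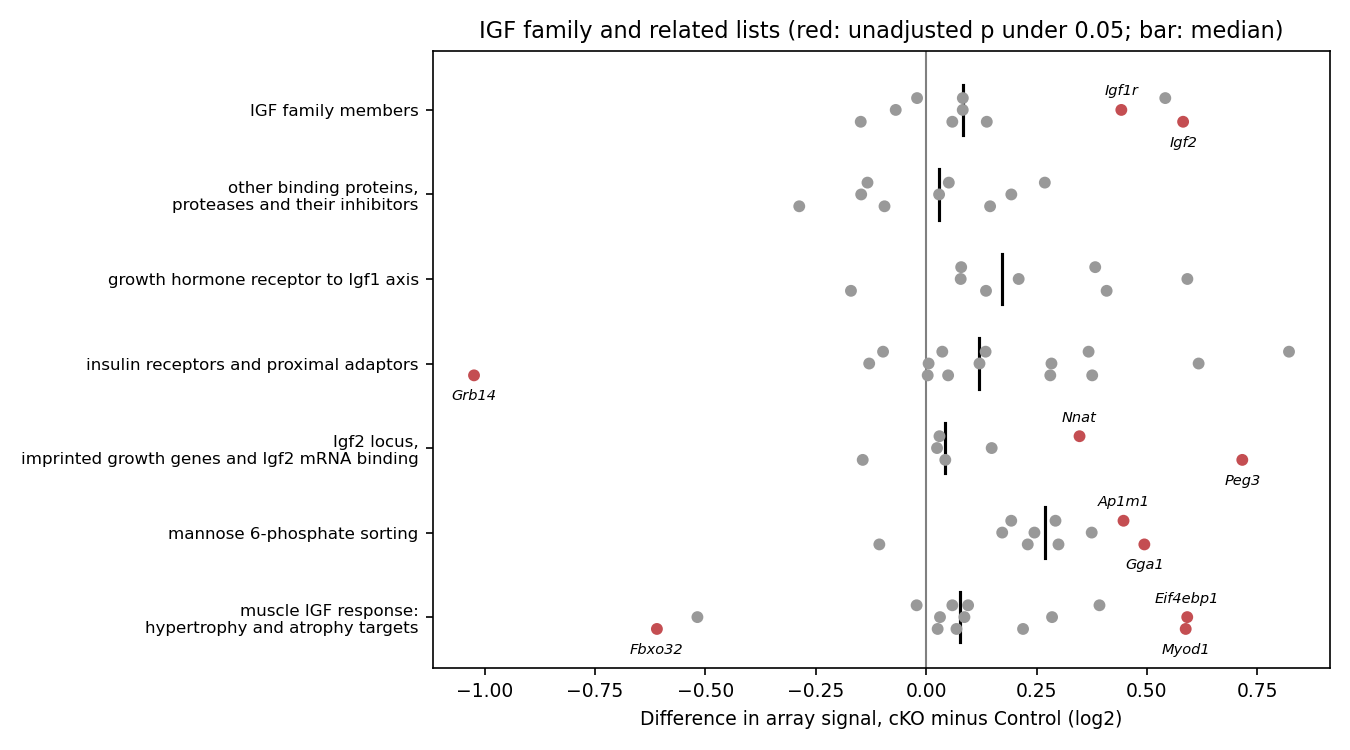
Difference (cKO minus Control, log2) of each tested gene of the IGF family and of the 6 related lists, with the list median as a black bar. Red points with names have a limma unadjusted p under 0.05, and 0 genes passed after adjustment. Grb14 lies farthest left, at -1.02.

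Genes with a pattern like that of a ligand were ranked by the mean absolute difference of centred log2 values over the 6 arrays, among 12310 genes. Closest to Igf2 were Cbll1 at 0.03 log2 units, Carm1 at 0.05 and Lmcd1 at 0.06. Like Igf2, all 3 were lowest in Control 1 and highest in cKO 3. Cbll1 shared the full order of Igf2, whereas Carm1 and Lmcd1 had cKO 1 above Control 3. Closest to Igf1 were Dse at 0.05, Osr1 at 0.05 and Pskh1 at 0.06. With 6 arrays and this many genes, close matches say nothing of shared function.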

How the data were processed

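The authors deposited 1 value table, with 1 column per array, whose values were read as log2 signals from their range of 1.92 to 19.9. Neither the labels nor the table state the log base, the software, or how signals were corrected, summarised and normalized. Per the labels' protocols, 100 ng of column-purified, DNase-treated total RNA was made into biotinylated cDNA. Of 72688 features, 6732 held no value and 65956 were measured on all arrays. Symbols came from the platform annotation (30604 features with 1 symbol, 2146 with several, 33206 unnamed), updated by Entrez identifier to RefSeq on GRCm38.p6. A symbol given more than once for a feature was read as 1 symbol.

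A feature was tested (33334 were) if 3 or more arrays had it above that array's median, with limma 3.58.1 in R 4.3.3 (lmFit, eBayes with an intensity trend), two-sided and with no block term. Adjustment was by Benjamini-Hochberg over all features tested. The arrays of a group are separate mice, and their number limits the precision. Exact permutation of 3 against 3 arrays cannot give a p below 0.1 and was not used. The fit was tested on simulated data. The 10 members, the lists, the markers and the rule for named genes were chosen with earlier results of these data known. The rule named all members, the 4 smallest p-values of each related list, and the 3 closest patterns to each ligand, and marker lists were read as means. Alternatives covered array scaling (quantile normalization, or median centring), other filters, eBayes settings, array weights, blocks for replicate number and mouse number range, the mean of a gene's features, and each array left out. Python 3.11.15, pandas 2.3.3 and matplotlib 3.10.9 made tables and plots.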

Additional observations from a re-analysis of the deposited data

How the results depend on the processing

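Over 17 alternatives 0 of the 10 IGF genes passed an adjusted p of 0.05 in limma, and Igf2, Igf1r, Igf2r and Igfbp2 kept the sign of their difference wherever they were tested. Of 166 values of single members under the alternatives, 144 kept their direction. Other filters, eBayes settings, the replicate block and the mean of a gene's features left each difference unchanged, so those values could not reverse. Each member had 1 feature, so the mean of features changed no member's values. The count of members with an unadjusted p under 0.05, 2 as deposited, was 0 after quantile normalization (alone or with a block for mouse number range) and after centring on array medians, 3 with array weights (where 12.8 percent of all features had such a p, against 4.5 percent as deposited), and 1 with the replicate block. Replicate numbers were not taken as pairs, since deviations of same-numbered arrays correlated at 0.13, -0.20 and 0.21. It ran from 0 to 3 with each array left out, and the share of all features from 2.94 to 9.43 percent. The count of members whose groups did not overlap ran from 1 to 3 with each array left out, while the share of all features rose to between 17.5 and 26.6 percent from 11.0 percent. That count of members could not fall below 1, since groups apart on all arrays stay apart when an array is dropped. The count of all features past the adjusted threshold ran from 0 to 14, the 14 being without Control 3. The median difference of the members, 0.08, was -0.016 after quantile normalization, -0.0030 with array weights and 0.20 with the number range block.

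Other members had differences near 0 that reversed. After quantile normalization these were Igf1 at -0.021, Igfbp4 at -0.056 and Igfbp7 at -0.012, and with array weights Igfbp4 at -0.025 and Igfbp7 at -0.087. Igfbp1, which is not a member but in a related list, was -0.0076 with array weights. With the number range block Igfbp3 was 0.25, and with quantile normalization added it was 0.14, with Igf1 at -0.082 and Igfbp4 at -0.0077. With each array left out, Igf1 ran from -0.052 to 0.20, Igfbp3 from -0.31 to 0.19, Igfbp4 from -0.031 to 0.21, Igfbp5 from -0.37 to 0.26, Igfbp6 from -0.29 to 0.022 and Igfbp7 from -0.22 to 0.23. Of the related lists, Stc1 ran from -0.61 to 0.054, Crim1 from -0.015 to 0.31 and Ndn from -0.38 to 0.093. The cause was not tested. Igfbp2 fell below the filter at the 75th percentile and without Control 2, cKO 1 or cKO 2.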
